A study of Bos taurus with 6 samples.

Results

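The regions described here are 5699 stretches of the bovine genome that the authors' transcript discovery called as transcribed in oocytes and that lay outside its annotated gene entries and coding sequences. They were taken from the authors' extended annotation as gene entries marked as predicted, with more than 3 supporting reads, that overlapped no annotated gene entry and no coding sequence on either strand. They made up 5699 of 6603 predicted entries and of 27526 gene entries in all, and the other 904 predicted entries overlapped an annotated gene. The minimum of reads left out none, since every predicted entry had at least 10 reads and at least 1 spliced read. Just inside, 124 loci had exactly 10 reads.

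The study sequenced polyadenylated RNA from individual oocytes of abattoir cattle ovaries. Germinal vesicle (GV) oocytes, which are arrested in meiotic prophase, were taken at follicle aspiration, and metaphase II (MII) oocytes had been matured in culture for 24 hours. The labels name no other treatment of either group, and they do not state breed, age or how many cows the oocytes came from. Read support of a predicted locus is pooled in the annotation, so a locus has no value per oocyte, and only the annotated genes beside it could be compared between stages, in 3 GV and 3 MII libraries.

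A growing oocyte stores a large pool of maternal RNA and then becomes transcriptionally silent until the embryonic genome is activated. Oocytes are known to transcribe many places outside protein-coding genes, among them long noncoding RNA genes, transcripts that start in the long terminal repeats of retrotransposons, and transcripts that run in the direction opposite to that of a gene from a shared promoter region. Early gene sets of cattle and other livestock were also incomplete, so that a region without an annotated gene may hold a coding gene, an unannotated exon or untranslated end of a neighbour, or a noncoding RNA.

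Most of the loci were thinly covered, and a small number held much of the signal. The median locus had 77 supporting reads, with 29 and 263 at the quartiles and 21826 at the top. In all, 2533 loci had at least 100 reads and 455 at least 1000. The 12 loci of most reads held 9.54% of the reads of all the loci, and the top 100 held 30.8%. Together the loci carried 1981209 of 43894772 supporting reads of the annotation, or 4.51%, and 96649 of 1471136 spliced reads, or 6.57%. These shares count reads and not molecules, since the libraries were amplified without molecular identifiers per the labels.

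Spliced reads, which cross an exon junction, were few at most loci. The median was 5, with 2 and 15 at the quartiles. Exactly 1 spliced read was given for 1121 loci (19.7%, 95% exact binomial interval 18.6 to 20.7), at least 10 for 1943 and at least 100 for 181. The loci with 1 spliced read were also thin and short, with a median of 28 reads and a span of 2.55 kb, against 10.8 kb for the others. A spliced read is what joins separate blocks of coverage into a transcript model, so the structure of those 1121 loci rests on 1 read. Over all loci, reads and spliced reads were correlated (Spearman's rho 0.55 over 5699 loci), and reads and span less so (rho 0.32). The loci share the same pooled libraries, so these coefficients are descriptions.

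**Figure D1:**
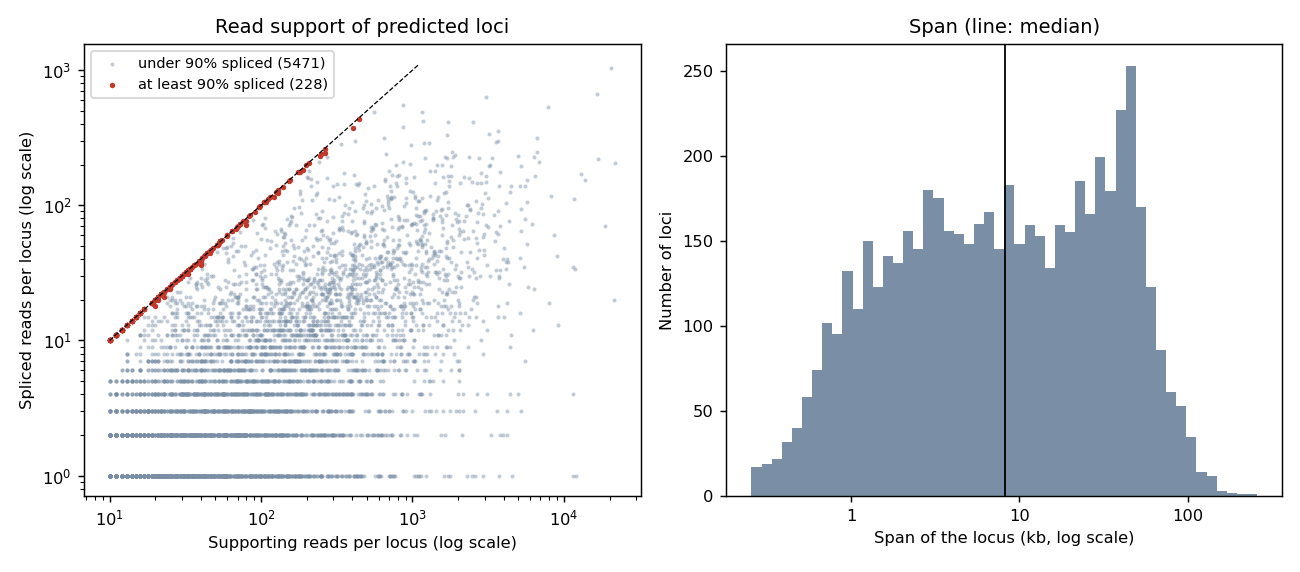
Read support and span of the 5699 predicted loci. Left, each point is a locus, with supporting reads on the x axis and spliced reads on the y axis, both on log scales, and the dashed line marks loci whose reads were all spliced; the 228 loci with at least 90% spliced reads are red. Right, the number of loci by span in kb on a log scale, with the median of 8.19 kb as a line and a drop in number above 50 kb.

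The loci spanned 254 bp to 260 kb, with a median of 8.19 kb. Their number fell at a span of 50 kb, with 401 loci of 30 to 40 kb, 405 of 40 to 50 kb and 190 of 50 to 60 kb. Of the 1121 loci with 1 spliced read, 1120 spanned less than 50 kb. The exception, locus 134 upstream of MCF2L2, spanned 50.3 kb; it was picked out after its value was seen. The 529 loci of at least 50 kb had more spliced reads, with a median of 20 in the class of 50 to 60 kb against 10 in that of 40 to 50 kb. Any limit that the discovery software placed on the length of a junction is not stated, and its part in the step was not tested. A locus held 1 transcript model in 2909 cases, at least 5 in 541 and at most 24.

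A group of 228 loci (4.0%, 95% exact binomial interval 3.51 to 4.54) had at least 90% of their reads spliced, and in 196 of them every read was. Among annotated genes with at least 10 reads the share was 0.135% (19 of 14042), and among the 904 predicted entries that overlapped annotated genes it was 9.40%. These loci were thinner than the rest, with a median of 26.5 reads against 83, and longer, with a median span of 12091 bp against 8095 bp. A transcript whose reads all cross junctions has junctions but no reads within its exons. The best covered was locus 6522 on the X chromosome (chrX:126984072-127061190), with 437 spliced of 442 reads and 12 transcript models over 77.1 kb, on the strand opposite to PTCHD1 and 44.2 kb upstream of it. Next came locus 549 beside DACT1, with 373 of 406, and locus 853 in the long interval beside KLHL29, with 259 of 263. High spliced shares were found more often in loci that overlapped another locus on the opposite strand (30 of 382, or 7.85%) than in those that did not (198 of 5317, or 3.72%); the difference was not tested.

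Of the 12 loci of most reads, 9 stood beside a gene with a mean under 10 RPKM in both stages. Locus numbers below are those of the authors' annotation, coordinates are counted from 1 in its build, and levels of the neighbouring genes are RPKM, reads per kb of gene model scaled to the mapped reads of the library, as mean ± SD of 3 libraries per stage. Positions refer to the nearest gene with a coding sequence, upstream or downstream in the direction of that gene, with the distance taken to its coding sequence.

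Locus 241 had the most reads, 21826 with 204 spliced, over 51.3 kb of chromosome 1 (chr1:122626123-122677386, minus strand). It lay 144 kb upstream of PLSCR5, a phospholipid scramblase family gene, which was at 0.101 ± 0.174 RPKM in GV and 0.143 ± 0.247 in MII. RefSeq (assembly ARS-UCD2.0), a later annotation, lists a pair of lncRNA genes between ZIC4 and PLSCR5. The 5 transcript models of the locus differed mostly at the upstream end, from 41.3 to 51.3 kb in span. Locus 499 (chr10:60177792-60184223) had 21251 reads but only 20 spliced, over 6.43 kb, and lay upstream of HDC, the histamine-forming histidine decarboxylase, which was listed at 0 in all 6 libraries. Locus 4805 went further in that direction, with 11944 reads over 1.06 kb (chr4:76749147-76750207) and 1 spliced read, upstream of IGFBP1, an insulin-like growth factor binding protein that was also listed at 0 in all 6. Both entries record a compact block of deep and almost unspliced coverage.

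The locus with the most spliced reads was locus 413 (chr10:36292515-36357081, plus strand), with 1042 spliced of 20542 reads in 2 transcript models over 64.6 kb. It lay 7.54 kb downstream of RPUSD2, an RNA pseudouridine synthase domain gene, on the same strand. RPUSD2 itself was low, at 2.62, 3.40 and 2.30 RPKM in GV14, GV14c and GV15 and at 0.744, 0.807 and 1.25 in MII14c, MII15 and MII15c. All GV libraries lay above all MII libraries. The log2 change was -0.96 (SE 0.30), with a limma adjusted p of 0.031. That call was lost when any 1 library other than GV15 was left out, with adjusted p of 0.0535 to 0.0844. It was also lost under quantile normalization (adjusted p 0.228), and in 8 of 13 alternative fits in all.

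Also among the 8 loci of most spliced reads was a pair of neighbouring loci on the minus strand of chromosome 17 upstream of ADAD1, a testis-associated gene with an adenosine deaminase domain. Locus 2057 (chr17:36134269-36223691) had 663 spliced of 16480 reads over 89.4 kb, and locus 2058 (chr17:36227148-36339955) had 530 of 7852 over 113 kb. ADAD1 was at 9.56 ± 1.73 RPKM in GV and 9.48 ± 3.17 in MII, and its stage difference did not pass the test (log2 change -0.04, limma adjusted p 0.928).

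RefSeq has a coding gene in the intervals that hold loci 413, 2057 and 2058, and a gene in those of a further pair of loci of many reads. Locus 2387, with 18562 reads but 70 spliced over 5.24 kb (chr19:17647392-17652632), lay 12.8 kb upstream of MYO1D on the opposite strand, and RefSeq lists H2BN1, a histone H2B family gene, between TMEM98 and MYO1D. Locus 5187, with 13717 reads over 57.9 kb (chr6:21859692-21917557), lay 67.3 kb upstream of CXXC4, a zinc-finger inhibitor of Wnt signalling, where RefSeq has a lncRNA gene, LOC101905590. Neither MYO1D nor CXXC4 exceeded a mean of 5.37 RPKM in either stage.

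Loci 3863, 2324, 4428 and 1620, also among the 12 of most reads, had no RefSeq coding or lncRNA gene that could be set beside them. For the last 3, as for loci 499 and 4805, the flanking genes overlapped or lay too close together in RefSeq to be compared. Locus 3863, with 11834 reads over 54.8 kb (chr26:29802694-29857443), was 833 kb downstream of XPNPEP1 in a long interval where RefSeq has only a pseudogene. Locus 2324, with 11457 reads and 4 spliced (chr18:59653847-59660965), lay among zinc-finger genes upstream of ZNF816, which was at 111 ± 22.8 RPKM in GV and 132 ± 29.7 in MII and did not pass the test (limma adjusted p 0.470). Locus 4428, with 12925 reads (chr3:57292921-57328559), was nearest to 1 of 10 genes carrying the symbol HNRNPA1, so the neighbour's own reads may be shared among copies. Locus 1620, with 11606 reads (chr15:35930347-35937986), lay 5.30 kb upstream of a copy of RPS13, a ribosomal protein gene whose symbol is carried by 3 genes. RPS13 was at 448, 798 and 422 RPKM in GV14, GV14c and GV15 and at 308, 216 and 241 in MII14c, MII15 and MII15c. The stages did not overlap, the log2 change was -1.08 (SE 0.28) and the limma adjusted p 0.0144, which became 0.0578 without MII15c and 0.114 without both GV14c and MII15c.

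Apart from loci 413, 2057 and 2058, the loci among the 8 of most spliced reads had 3052 reads or fewer. Locus 844 (chr11:75792681-75840804) had 635 spliced of 3052 reads and the largest number of transcript models, 24 over 48.1 kb, 355 kb upstream of a KLHL29 copy in an interval where RefSeq lists 9 lncRNA genes, 2 pseudogenes and TDRD15, a tudor domain gene. Locus 2224 (chr18:31431033-31448061) had 552 spliced of 872 reads, 1352 kb downstream of CDH11, a cadherin listed at 0 in all 6 libraries. Locus 2208 (chr18:25082072-25085261) had 494 spliced of 1164 reads within 3.19 kb, 23.0 kb downstream of HERPUD1. Locus 1025 (chr12:68027328-68059959) had 486 of 559, upstream of the glypican gene GPC6, which was at 0.267 ± 0.261 RPKM in GV and 0.187 ± 0.162 in MII. HERPUD1 reached at most 1.38 RPKM in any library, so none of these loci stood beside an abundant annotated transcript.

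The 4 longest loci had between 49 and 335 spliced reads. Locus 3208 spanned 260 kb (chr22:14123905-14383495) with 335 spliced of 3211 reads, upstream of ABHD5, a lipase co-activator. Locus 3433 spanned 205 kb (chr23:35862293-36067496) with 281 of 984, downstream of the transcription factor gene SOX4, and locus 5466 spanned 187 kb (chr7:38411362-38598457) with 289 of 1189, upstream of the semaphorin gene SEMA6A. Locus 2669 spanned 186 kb (chr2:56050165-56235830) with 49 of 531, upstream of 1 of 2 LRP1B entries. RefSeq lists 2 lncRNA genes in the interval of locus 3433, 4 in that of locus 5466, and 1 beside 6 coding genes in that of locus 2669.

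Distance to the nearest coding gene ranged from 3 bp to 2421 kb, with a median of 74.6 kb over the 5682 loci that had a coding gene on the same sequence. Within 5 kb lay 428 loci (7.53%, 95% exact binomial interval 6.86 to 8.25), within 50 kb 2311, and beyond 500 kb 495. The farthest was locus 5252 (chr6:54609381-54649229), with 21 reads, 2421 kb from ARAP2. Locus 5780 (chr8:13751092-13766562), 2233 kb from ACO1, had 2335 reads and 57 spliced, locus 5781 in the same interval had 70, and locus 5854 (chr8:34162172-34202488), 2373 kb from PTPRD, had 1017. Distance did not go with support: the median distance was 69960 bp for loci of 10 to 29 reads, 70743 bp for 30 to 77, 83021 bp for 78 to 263 and 75471 bp for 264 or more.

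Loci also came in runs. They fell into 2742 intervals between coding genes, of which 1604 held a single locus and 37 held at least 10. The most, 25, lay in a 2864 kb interval between AP3S1 and MBD2 on chromosome 24 and, again 25, in a 4751 kb interval between ACO1 and LINGO2 on chromosome 8. In the latter, 23 of 25 were on the plus strand. The genes at both ends of these intervals were low, with ACO1 at 2.09 ± 0.274 RPKM and LINGO2 at 0.0574 ± 0.0438 in GV. Per 100 coding genes, chromosomes held from 11.9 loci (chromosome 25) to 61.9 (chromosome 24), and the X chromosome held 32.4. Chromosomes differ in gene spacing, so a rate per gene is not a rate per length.

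Strand was close to evenly split overall and far from it near genes. On the strand of the nearest gene lay 50.9% of loci (2894 of 5682, 95% exact binomial interval 49.6 to 52.2). Within 1 kb of a coding sequence the share was 9.62% (10 of 104, interval 4.71 to 17.0), and 79 of the 104 (76.0%, interval 66.6 to 83.8) lay upstream on the opposite strand, running away from the gene. From 1 to 5 kb the share on the strand of the gene was 35.2%, from 5 to 10 kb it was 47.8%, and in every class beyond 10 kb it was between 51.9% and 53.7%. By the rule, an entry that overlaps an annotated gene entry, which the authors may have extended with oocyte reads, is not a locus here; the part of this in the strand shares near genes was not tested. The labels name no step that marks strand, and how the software chose the strand of a locus is not stated.

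**Figure D2:**
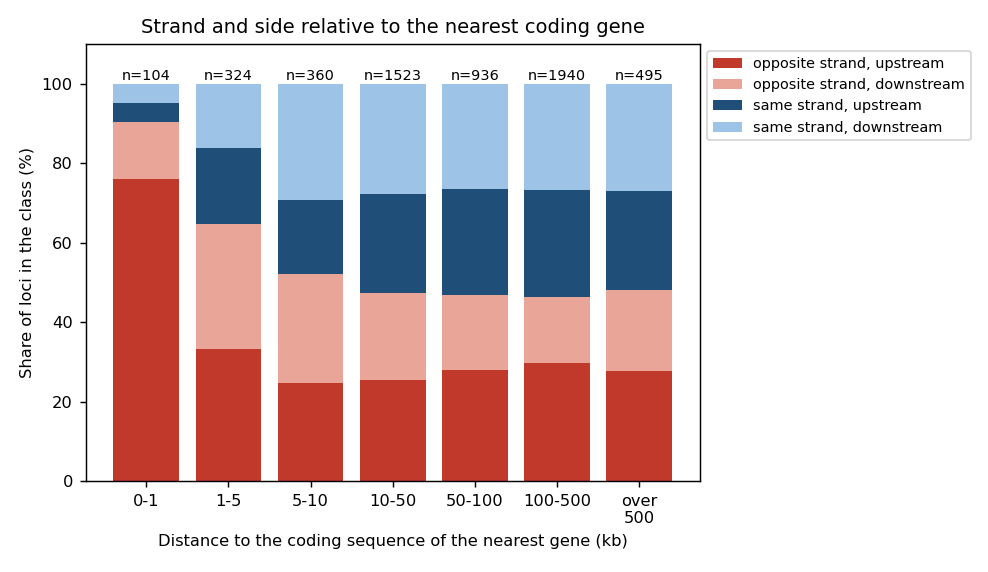
Strand and side of the predicted loci relative to the nearest coding gene, by distance to its coding sequence in kb. Each bar adds up to 100% of the loci in the distance class, with their number above it; opposite-strand upstream loci make up 76.0% of the class within 1 kb and between 24.7% and 33.3% of every other class.

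The 79 divergent loci within 1 kb had a median of 133 reads, 10 spliced reads and a span of 4356 bp, and the closest was 9 bp from the coding sequence. The one with most reads was locus 657 (chr11:9238963-9240921), with 5165 reads and 41 spliced over 1.96 kb, 68 bp upstream of C2orf49. RefSeq lists a lncRNA gene, LOC100848208, beside that gene in the same interval. Within 5 kb and on the opposite strand came locus 3318 (chr22:51175658-51186384), with 4976 reads and 4 spliced, beside ENSBTAG00000011581, a gene without a usable symbol that reached at most 0.041 RPKM in any library. Locus 2143 (chr17:71963607-71968780), with 3081 reads, lay 2.19 kb upstream of MORC2, where RefSeq lists LOC100848149 and TUG1, a gene best known for its long noncoding transcript. Locus 2398 (chr19:22098259-22104987), with 2608 reads and 107 spliced, lay 3.52 kb upstream of GOSR1, a Golgi SNARE gene. A much-read divergent locus thus occurred beside a gene at 141 RPKM in GV and beside one that was all but absent.

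The 10 loci within 1 kb on the strand of the gene were thin. The 5 upstream were beside LRRC63, FAM208B, ZNF548, LTBR and ZNF266, and the 5 downstream beside MAG, RXFP4, ENSBTAG00000032455, CCM2 and FAM227A, and none had more than 238 reads. Within 5 kb downstream on the same strand, the position of an unannotated 3′ end, lay 57 loci. Those with many reads included locus 2455 (chr19:40132850-40135951; 4172 reads) past LASP1, locus 2446 (chr19:37326570-37333555; 1605 reads) past 1 of 2 EIF2AK1 entries and locus 2458 (chr19:43629212-43632280; 1089 reads) past 1 of 2 AARSD1 entries. The EIF2AK1 entry reached no more than 0.306 RPKM in any library, whereas AARSD1 was at 47.6 ± 8.53 RPKM in GV.

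Predicted loci also overlapped each other, always on opposite strands. There were 191 such pairs, formed by 382 loci. In 92 pairs the starts overlapped, by a median of 1232 bp, in 31 the ends overlapped, and in 68 a locus lay inside its partner. Where consecutive loci were separate but within 5 kb, 106 pairs faced away from each other with a median gap of 771 bp, 30 faced each other with a median gap of 3335 bp, and 117 ran the same way with a median gap of 2785 bp. Divergent pairs were thus both the most frequent of the opposite-strand arrangements and the closest. By the reads of the weaker partner, the first pair was locus 4814 (1863 reads) and locus 4815 (1580 reads) on chromosome 4, whose starts overlapped by 40557 bp; it was picked out after the values were seen. With no strand mark in the libraries, reads in the shared stretch of such a pair cannot be told apart. Of 4021 further annotated entries that the rule did not use, most of them small RNA genes, 63 were overlapped on the opposite strand by 57 loci, among them 22 of 1220 snRNA and 20 of 1153 miRNA genes, and 0 were overlapped on the same strand.

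The annotated genes beside the loci were more often expressed than the average gene. Of 3147 distinct nearest genes, 3130 were in the expression table. Their median level was 1.39 RPKM in GV and 0.868 in MII, against 0.493 and 0.218 over all 20707 genes, and 54.0% against 43.5% reached 1 RPKM in GV. Genes with a divergent locus within 1 kb upstream had a median of 3.04 RPKM in GV and 0.939 in MII. The level of a locus did not follow that of its neighbour: over 5649 loci, reads and the neighbour's mean RPKM had a rho of 0.043, and over the 426 within 5 kb a rho of 0.093. Several loci can share a neighbour, so these are descriptions.

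Between the stages, 1641 of the nearest genes had a mean of at least 1 RPKM and were tested, with adjusted p taken over all 8671 genes tested. In MII, 328 were lower (19.99%, against 26.9% of all genes tested) and 251 higher (15.3%, against 13.4%), so that 579 passed in either direction (35.3%, against 40.3%), and 1062 did not pass. The balance depended on scaling. It was 287 lower and 346 higher (21.1%, against 18.3% of all genes) after median-ratio scaling and 227 lower and 472 higher (28.8%, against 24.6%) after quantile normalization, which moved the median log2 change of all genes from -0.16 to -0.001 and 0.22. Under each of these 3 scalings the nearest genes had a smaller share of lower calls than all genes tested, at 17.5% against 24.5% and 13.8% against 20.5% in the rescaled fits. Without MII15c 361 passed (21.9%, against 26.7% of all genes). Without both GV14c and MII15c, the columns that match no sample title, 239 passed (14.7%, against 19.4%), 159 lower and 80 higher.

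**Figure D3:**
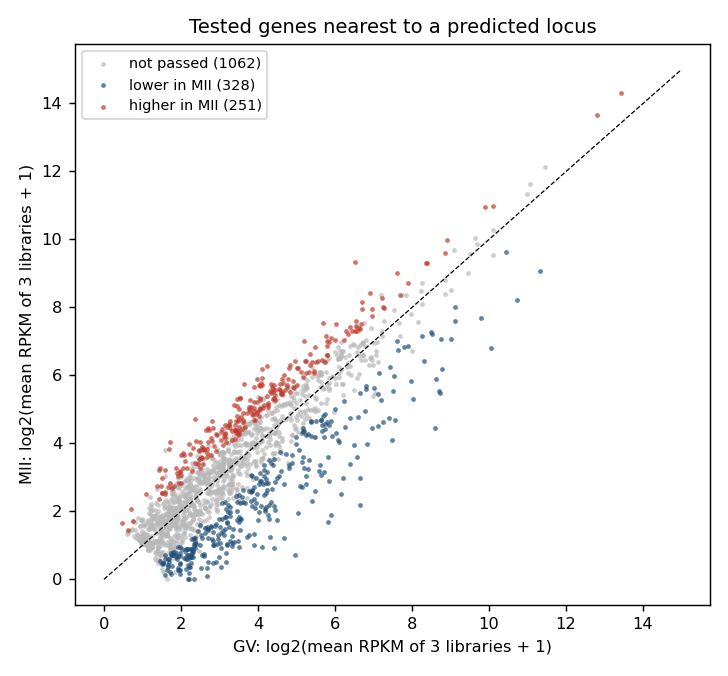
Stage levels of the 1641 tested genes nearest to a predicted locus. Each point is a gene, with log2(mean RPKM + 1) over 3 GV libraries on the x axis and over 3 MII libraries on the y axis; the dashed line marks equality, and colours mark the 328 genes lower and 251 genes higher in MII by limma at an adjusted p below 0.05.

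Near genes the shares differed with the position of the locus. Of 218 tested genes with a locus within 5 kb, 62 were lower (28.4%) and 26 higher (11.9%), close to the shares of all genes tested. Of 47 tested genes with a divergent locus within 1 kb upstream, 19 were lower (40.4%, beside 26.9% of all genes tested) and 5 higher (10.6%, beside 13.4%), with a median log2 change of -0.48 against -0.16. Of 21 tested genes with a locus within 5 kb downstream on their own strand, 9 were lower and 0 higher by limma (42.9% lower). With the unadjusted p of limma below 0.05, 0 were higher as well, beside 1521 of all 8671 genes tested. Without both columns that match no title, the divergent count became 8 lower and 0 higher of 47, beside 15.2% lower of all genes. At an unadjusted p below 0.05 by limma it was 15 and 5, beside 2030 lower and 1016 higher of all 8456 genes tested in that fit. The downstream count became 4 lower of 21. After quantile normalization the divergent set had 12 lower (25.5%) and 9 higher (19.1%), and the downstream set 7 lower (33.3%). Of all genes tested, 20.5% were lower and 24.6% higher after that normalization. In the other positions within 5 kb the shares lower in MII were smaller, at 10 of 52 (19.2%) downstream on the opposite strand and 7 of 37 (18.9%) upstream on the same strand, where 8 were higher. These counts describe few genes, and no test of the difference from other genes was made.

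Members of the divergent set with the largest decreases included TMEM126B, a mitochondrial complex I assembly factor, and RPS3A, a ribosomal protein. TMEM126B was at 69.5, 90.3 and 88.3 RPKM in GV14, GV14c and GV15 and at 13.04, 5.13 and 10.3 in MII14c, MII15 and MII15c, and the 43 reads of locus 4200, 773 bp upstream of it, were all spliced. RPS3A was at 128, 196 and 177 RPKM in the GV libraries and 28.03, 21.1 and 27.5 in the MII libraries, with locus 1977 (411 reads) 223 bp upstream. C2orf49, beside the best-read divergent locus, was at 17.6, 17.7 and 20.5 RPKM in GV and 3.74, 3.39 and 3.47 in MII. Its stages lay far apart relative to their spread, and the log2 change was -2.11 (SE 0.26, limma adjusted p 0.00039). GOSR1, whose locus lay 3.52 kb upstream and so outside this set, fell by 1.06 on the log2 scale (SE 0.21, limma adjusted p 0.0040). The 5 members of the set that rose were ATP2A2, MAP3K7, BOD1, OSTM1 and FBXO33, by log2 changes of 0.63 to 1.14. Apart from C2orf49 and GOSR1, the names in this paragraph were chosen after the values were seen.

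On the downstream side, LSM2, a subunit of the Lsm complexes that act in splicing and mRNA decay, was at 53.3, 65.3 and 47.3 RPKM in GV and 2.35, 1.48 and 2.80 in MII, with locus 3411 (35 reads) 2.21 kb past its coding sequence. AARSD1 was at 43.1, 57.4 and 42.2 RPKM in GV and 10.4, 8.19 and 9.11 in MII. Both fell in every library comparison between stages, with log2 changes of -4.14 (SE 0.28) and -2.24 (SE 0.24) and limma adjusted p of 2.3e-05 and 0.00019. LASP1 (log2 change -0.43, limma adjusted p 0.396) did not pass.

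The largest rises among the nearest genes lay between 1.85 and 2.72 on the log2 scale. TMSB4X, an actin-sequestering thymosin whose symbol 5 genes carry, was at 55.6, 142 and 75.9 RPKM in the GV libraries and 319, 1118 and 497 in the MII libraries (log2 change 2.72, SE 0.47, limma adjusted p 0.0021), and its locus, 54.3 kb upstream, had 36 reads. Then came RAP2C, a Ras-family GTPase (log2 change 2.30), PTAR1, FAM76B, CEP120, a centriole assembly protein, QKI, an RNA-binding protein that controls splicing and mRNA stability, CNOT6L, a catalytic subunit of the CCR4-NOT deadenylase, and LIN7C (1.85). CNOT6L, which removes poly(A) tails, was at 13.9, 13.7 and 16.9 RPKM in GV and 77.4, 42.7 and 56.8 in MII, with a log2 change of 1.89 (SE 0.27) and a limma adjusted p of 0.00082. Every MII library of each of these 8 lay above every GV library, which the rule of choice required. Among all genes tested, the stages did not overlap for 4501 of 8671 (51.9%).

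The largest falls were deeper. C12orf49, a regulator of sterol-responsive transcription, was at 113, 111.6 and 76.0 RPKM in GV and 5.24, 2.63 and 2.84 in MII. Its fall was 4.49 on the log2 scale. TUBA1B, an alpha-tubulin whose symbol 2 genes carry, went from 385 ± 40.7 to 20.8 ± 5.48 RPKM, with locus 4985 (33 reads) 3.35 kb downstream on the opposite strand. MDH1, the cytosolic malate dehydrogenase, went from 58.6 ± 3.53 to 2.68 ± 0.791 RPKM, and locus 795, 19.7 kb downstream on the opposite strand, had 1722 reads. The others were PPCDC, an enzyme of coenzyme A synthesis, LSM2, RPL34, SLC35B1 and COMMD1. All 16 of these rises and falls passed in each of the 14 alternative fits. None of their loci was among the 12 of most reads, and the reads of a locus cannot be assigned to a stage.

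**Figure D4:**
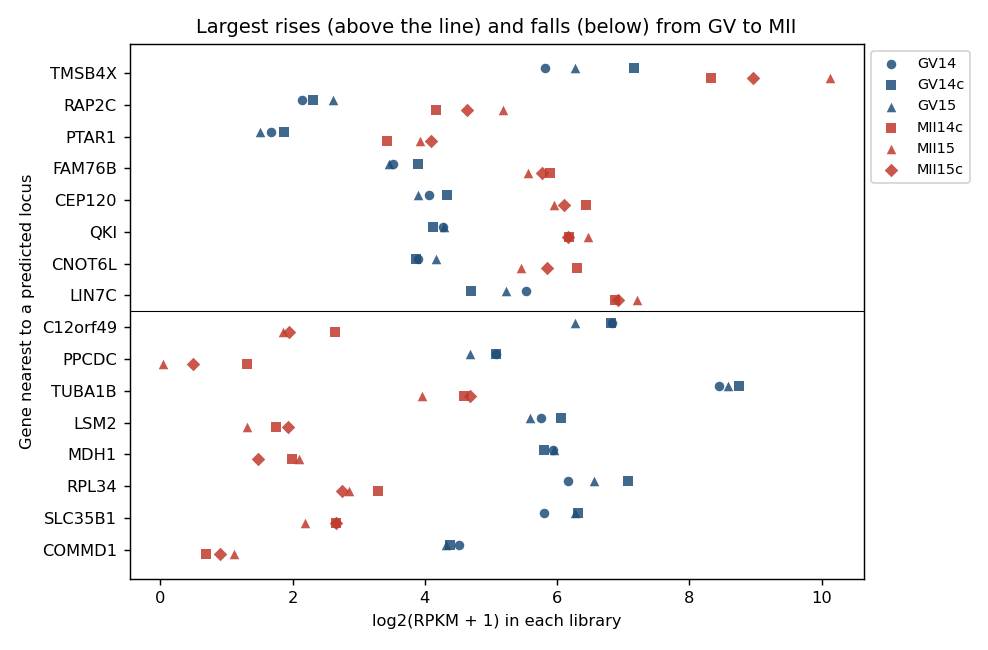
Level of 16 genes nearest to a predicted locus in each of the 6 libraries, as log2(RPKM + 1) on the x axis. Blue points are the 3 GV libraries and red points the 3 MII libraries. The 8 genes above the line have the largest rises and the 8 below it the largest falls. They were chosen among nearest genes that reached 10 RPKM in a stage mean and whose stages did not overlap.

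Of 36 symbols listed for genes with roles in oocytes, 30 were in the expression table, and 8 of these genes were the nearest gene of 9 loci. ZP4 and ZP3, which encode glycoproteins of the zona pellucida, were lower in MII. ZP4 was at 1249, 2298 and 1557 RPKM in GV and 231, 373 and 286 in MII, with a log2 change of -2.50 (SE 0.28) and a limma adjusted p of 0.00023, and locus 4085 (chr28:10682674-10708581) lay 11.3 kb upstream with 478 reads and 33 spliced. ZP3 ranged from 248 to 2274 RPKM in GV and from 25.04 to 176 in MII, with a limma adjusted p of 0.0184. That call was lost in 3 of 14 alternative fits. The adjusted p was 0.0515 without GV14c, 0.0766 without a filter and 0.0784 without both columns that match no title. Locus 3773 (chr25:34970148-34971320), 1.78 kb past the coding sequence of ZP3 on the same strand, had only 22 reads. Both zona genes were abundant in GV. The locus beside ZP3 was thin, while locus 4085 beside ZP4 lay above the upper quartiles of all loci, 263 reads and 15 spliced reads.

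KHDC3L and OOEP, members of the subcortical maternal complex of the oocyte, lie together on chromosome 9. Upstream of KHDC3L, locus 6082 (chr9:12945477-12951273, plus strand, 1115 reads, 27 spliced) and locus 6083 (chr9:12934414-12946471, minus strand, 200 reads, 162 spliced) overlapped at their starts by 995 bp. The interval between matched genes that holds both loci was 1037 kb long. RefSeq lists 2 coding genes there, KHDC1L, another KH domain gene, and LOC104972957, and 2 lncRNA genes. KHDC3L was at 28.5, 43.5 and 20.3 RPKM in GV and 17.2, 14.7 and 12.7 in MII (limma adjusted p 0.035). That call was lost without GV14, GV14c, MII15 or MII15c in turn (adjusted p 0.0561 to 0.120). It was also lost after median-ratio scaling (0.0581) or quantile normalization (0.0695), and in 9 of 14 alternative fits in all (up to 0.273). Locus 6084 (chr9:12987351-12995517), 4.89 kb upstream of OOEP, had 1874 reads, and OOEP itself varied from 169 to 610 RPKM and did not pass (limma adjusted p 0.379).

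BTG4, which brings the CCR4-NOT deadenylase to maternal mRNA, was the neighbour of highest level among those named, at 11046 ± 2789 RPKM in GV and 20428 ± 6466 in MII. Its call, at a limma adjusted p of 0.0488, was lost without GV14, GV14c, MII15 or MII15c in turn (0.126 to 0.135). It was also lost after median-ratio scaling (0.127), and in 8 of 14 alternative fits in all (adjusted p up to 0.364). Locus 1577 (chr15:22077580-22092028), 13.6 kb downstream on the opposite strand, had 536 reads and 65 spliced. KPNA7, an oocyte importin alpha, was at 77.1, 126 and 76.4 RPKM in GV and 210, 130 and 186 in MII (limma adjusted p 0.0251). The call was lost without GV14, GV15, MII14c or MII15c in turn (0.0786 to 0.0897), and in 6 of 14 alternative fits in all. Locus 6422 (chrX:94075277-94080172), 97.5 kb downstream of BMP15, an oocyte growth factor, had 271 reads and 1 spliced, and RefSeq lists EZHIP, an inhibitor of the Polycomb methyltransferase EZH2, between BMP15 and NUDT11. BMP15 (limma adjusted p 0.245) and CPEB1, which binds cytoplasmic polyadenylation elements (limma adjusted p 0.355), did not pass.

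Many of the intervals that held loci now contain an annotated gene. The comparison was added after the data were seen. It used the order of genes in RefSeq (assembly ARS-UCD2.0), matched by symbol for 14147 of 19980 coding genes (70.8%), and 4646 loci (81.5%) had matched flanking genes in the same order and at a similar spacing. Among the 2579 of these with no other annotated gene between the flanks, RefSeq had a lncRNA gene in the interval for 1567 (60.8%), a protein-coding gene for 412 (16.0%) and either for 1701 (66.0%). A RefSeq gene in the same interval need not coincide with the locus, since the builds differ and positions within the interval were not compared. Loci that share an interval also share its RefSeq genes.

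Counted by interval, 664 of 1248 intervals with a locus (53.2%, 95% exact binomial interval 50.4 to 56.0) had such a RefSeq gene, against 865 of 6010 without a locus (14.4%, interval 13.5 to 15.3). Intervals with a locus were longer, so the shares were compared within classes of length. Under 20 kb they were 29.2% with a locus and 4.49% without, at 20 to 50 kb 28.9% and 13.5%, at 50 to 100 kb 38.7% and 25%, at 100 to 200 kb 46.3% and 40.9%, at 200 to 500 kb 60.6% and 45.5%, and above 500 kb 79.4% and 69.7%. A locus and a RefSeq gene were each counted only if they lay wholly inside the interval between genes. Lengths can still differ within a class, as under 20 kb, which has no lower limit, and their part was not tested. The share was higher with a locus in each of the 6 classes, and the exact intervals were apart in 4 of them. They overlapped at 100 to 200 kb (39.6 to 53.0% against 36.2 to 45.7%) and above 500 kb (74.2 to 84.0% against 59.0 to 79.0%). For protein-coding genes alone, the exact intervals were apart only at 20 to 50 kb (7.69 to 19.3% against 4.48 to 6.89%). Among loci with no annotated gene between their flanks, the share with a RefSeq coding gene in the interval was 16.1% for 1 spliced read, 16.1% for 2 to 9, 13.7% for 10 to 49, 20.3% for 50 to 99 and 25% (19 of 76) for at least 100. The share had no steady course, the intervals also differed in length (a median of 325 kb for 1 spliced read and 440 kb for at least 100), and the difference was not tested.

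**Figure D5:**
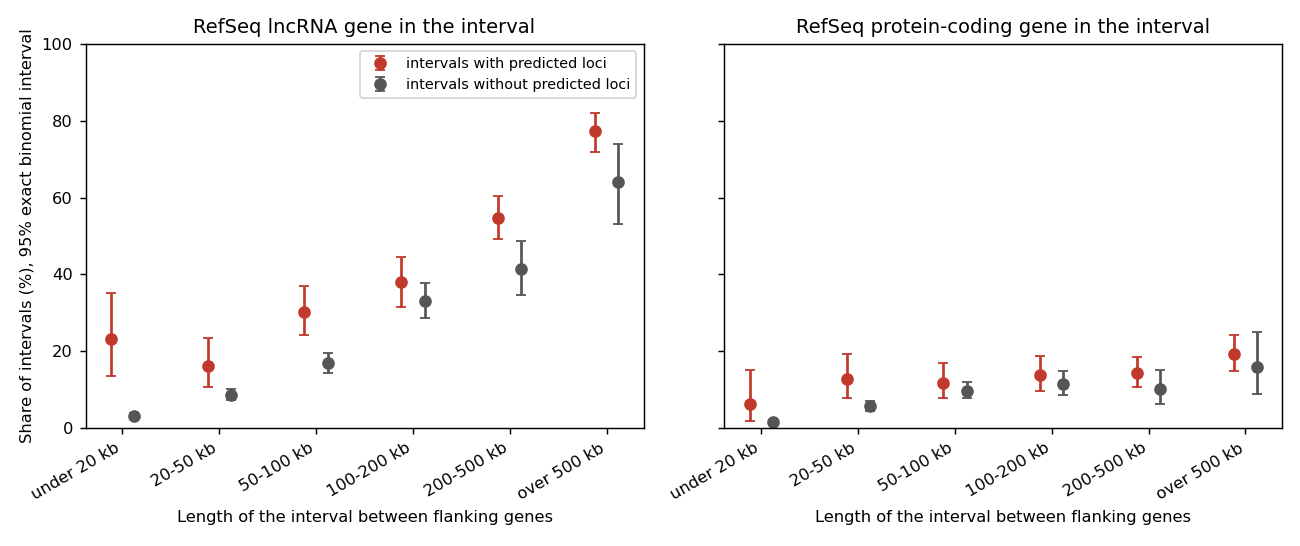
Share of intervals between flanking annotated genes that hold a RefSeq lncRNA gene (left) or protein-coding gene (right) absent from the authors' annotation, by interval length. Red points are intervals with at least 1 predicted locus and grey points intervals without, and the bars are 95% exact binomial intervals; the red point lies above the grey one in all 6 length classes for both kinds of gene.

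Facts on the libraries bear on all stage values above. The libraries were made from polyadenylated RNA, so a change in poly(A) tails cannot be told apart from a change in the amount of RNA. Recovered depth was 20.2 to 29.9 M reads in GV and 21.2 to 32.5 M in MII. All 10 oocyte marker genes reached 1 RPKM in at least 1 library, and their summed level was 7312 to 10527 RPKM in GV and 3202 to 4110 in MII. Of 12 cumulus and granulosa markers in the table, 4 reached 1 RPKM in some library (STAR, HAS2, FST and INHBA) and LHCGR and PTX3 were at 0 in all, with summed levels of 85.1 to 155 RPKM in GV and 95.5 to 96.2 in MII. STAR was at 67.1 to 136 RPKM in GV and 29.3 to 39.7 in MII, and HAS2 at 11.6 to 18.9 in GV and 55.4 to 64.8 in MII. Their part in the pooled reads of the loci was not tested. The authors diluted adapters differently among samples, with ranges that follow stage in part, so stage and adapter dilution cannot be fully told apart. Supporting reads of annotated genes followed the sum of all 6 libraries (rho 0.76 over 204 genes) more closely than the GV sum (0.66) or the MII sum (0.64). The stage that the reads of a locus came from cannot be told apart.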

How the data were processed

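Polyadenylated RNA of individual oocytes was made into cDNA with the Clontech SMARTer Ultralow kit and read as single reads of 50 bases, per the labels' protocols. The authors deposited RPKM for 20707 genes in 6 libraries, per the file headers, and an annotation extended by transcript discovery that gives supporting and spliced reads per gene entry. The submitters' processing notes name DESeq without its role; an aligner is not given in the sources used here, nor are genome build and discovery settings. The columns GV14c and MII15c match no sample title and were used by stage only. The titles GV15c and MII14 match no column. Whether the oocytes came from separate animals, or a letter c marks a repeat, is not stated; p-values then reflect no more than library-to-library spread, which may be technical.

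Loci were found by the stated rule, and intervals, sides and distances were computed in Python 3.11.15 and checked on simulated intervals. Shares have 95% exact (Clopper-Pearson) intervals, which cover counting error only. Depth was recovered from low RPKM of genes whose model is coding sequence alone; 97.8% to 99.6% of low values lay within 0.1 of a whole read. Since RPKM are not counts, stages were compared with limma 3.58.1 in R 4.3.3 (eBayes with trend) on log2(RPKM + 1), over the 8671 genes averaging 1 RPKM or more. Calls needed a Benjamini-Hochberg adjusted p below 0.05. Log2 changes are MII minus GV on that scale, which understates changes of low genes. The fit was tested on simulated data.

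Loci named are the 12 of most reads, the 8 of most spliced reads, the 4 farthest, the 4 longest, and the 4 of most reads within 5 kb downstream on the same strand and within 5 kb upstream on the opposite strand. Genes named are their neighbours and neighbours in an oocyte list of 36 symbols. Also named are the 8 largest rises and 8 largest falls whose stages did not overlap and whose higher stage mean reached 10 RPKM. The loci, lists and rules were chosen with earlier results of these data known. Symbols are those of the authors' table, and 417 genes had no usable symbol. Alternatives tried were other pseudocounts, filters, scalings, left-out libraries, a replicate block and the letter c of the column names as a term. Sequences of the loci were not used here, and a few named loci and flanking genes are left out of the text.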

Additional observations from a re-analysis of the deposited data

How the results depend on the processing

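The number of loci stayed between 5471 and 6529 under each alternative rule (5699 as reported). Dropping the minimum of reads or asking for 1 spliced read could change nothing, since every predicted entry had at least 10 reads and 1 spliced read. The share on the strand of the nearest gene was between 50.9% and 51.0% in the alternatives for which it was computed. It was not computed for the rule that allowed overlap with annotated genes on the opposite strand. Measured to the whole gene entry, 9.77% of loci lay within 5 kb. Of nearest genes, 579 passed as reported. When 1 library was left out, 361 to 597 passed (231 to 314 lower, 130 to 289 higher), fewest without MII15c. As shares these were 21.9% to 35.9%, against 26.7% to 39.4% of all genes. Leaving out GV14c and MII15c together, which match no title, 239 passed (14.7%, against 19.4% of all genes), 159 lower and 80 higher. With a mean of at least 5 RPKM, 212 of 1010 genes tested were lower (21.0%, against 28.7% of all genes). The share as reported was 19.99%, so the smaller count came with fewer genes tested. After quantile normalization 472 were higher (28.8%, against 24.6% of all genes). With the replicate block on the numbers 14 and 15, 544 passed (33.2%, against 37.8% of all genes), 298 lower and 246 higher. The limma adjusted p of KHDC3L was then 0.0628. In an unplanned fit with the letter c of the column names as a term, 745 passed (45.4%, against 51.2% of all genes), 422 lower and 323 higher. Deviations of same-numbered libraries correlated between -0.23 and 0.43, so the numbers were not taken to pair the oocytes. Between a GV and an MII library that both had or both lacked the letter c, the correlation was 0.067 to 0.43. Where only 1 of them had the letter, it was -0.41 to -0.0083. Over 42 named neighbour genes, 535 values of single genes under alternatives kept their side of the threshold, 36 lost it, 5 gained it and 0 reversed. Those that gained it were ARAP2, CPEB1 and OOEP. Loci have no value per library, so no leave-one-out value exists for their reads. At 10 reads a locus, a structure rests on few molecules.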
